A study of Homo sapiens with 9 samples.

Results

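The comparison covered H460-ERT2-RUNX3 cells against H460-vec cells in the starved state, before serum and inducer were added. Its members were the 11573 of 24331 genes, 47.6%, that reached an FPKM (fragment counts scaled to transcript length and library size) of 1 in at least 1 of the 2 libraries. H460 is a human large cell lung cancer line that carries oncogenic K-RAS and wild-type p53 and in which RUNX3 is inactivated. The study prepared 9 RNA-seq libraries, 1 for each of 3 H460 lines at 0, 8 and 16 h, and no difference between them has a replicate check.

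H460-vec, which the labels call H460 with the genotype RUNX3 inactivation, was the control line. H460-ERT2-RUNX3 expressed wild-type RUNX3 fused to ERT2, and the third line, H460-ERT2-RUNX3-K94/171R, expressed the fusion with RUNX3 changed at Lys-94 and Lys-171. All lines were obtained by stable transfection and used at passage 11. Whether a line was 1 clone or a pool of clones, and which promoter drove the fusion, is not given in the sources used here. At 0 h the cells had been without serum for 24 h and had received no inducer. The libraries at 8 and 16 h came from cells given 10% serum with 1 μM 4-hydroxytamoxifen (4-OHT). Stable integration, clonal origin and the presence of the fusion differ together between the lines, and their parts in any difference cannot be told apart.

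RUNX3 is a transcription factor that binds DNA through its Runt domain, together with its partner CBFB, and it switches genes on or off according to the proteins it recruits. ERT2 is a mutated hormone-binding domain of the estrogen receptor that keeps its fusion partner in the cytoplasm until 4-OHT is present. Starved cells leave the cell cycle or slow in it, and secreted factors, matrix proteins and growth-control genes are among those whose level depends on serum. The comparison at 0 h therefore addressed how far the lines already lay apart before the fusion was activated.

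The line difference is log2 of FPKM + 0.05 in H460-ERT2-RUNX3 over FPKM + 0.05 in H460-vec, so positive values are higher in the RUNX3 line. On this scale fold changes of low genes are understated. Most genes were at a similar level in both lines. The median difference was -0.0028, the middle 50% of genes lay between -0.16 and 0.15, and 10198 genes, 88.1%, lay within 0.5 of 0. Pearson's r of the log2 levels was 0.933 across the genes, and 0.975 across the 11520 genes above 0 in both libraries, where genes are not independent replicates. FPKM values do not give the number of reads. If each library was scaled by its own reads alone, the steps of low values put the RUNX3 library at 1.10 times the control depth. This ratio rests on 348 of 1987 low genes. The FPKM values summed to 595679 for H460-vec and 554359 for H460-ERT2-RUNX3, and scaling both to the same sum raises every difference by 0.10.

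Of the 11573 genes, 296 (2.56%) were higher in the RUNX3 line by at least 1, which is 2-fold, and 230 (1.99%) were lower by as much. By at least 2, which is 4-fold and the size the study used for its own comparisons, 106 genes (0.916%) were higher and 72 (0.622%) lower. In either direction this made 4.55% and 1.54% of the genes. For scale, H460-vec at 8 h differed from H460-vec at 0 h by at least 1 in 2.02% of genes, and H460-vec at 16 h differed from that at 8 h in 2.22%. H460-ERT2-RUNX3 at 8 h differed from its own 0 h library in 8.2% of genes. The starved lines thus differed in a larger share of genes than neighbouring times of the control line, and in a smaller share than the RUNX3 line over its first 8 h with inducer. Libraries of neighbouring times also differ by treatment, so these shares do not measure technical spread.

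**Figure D1:**
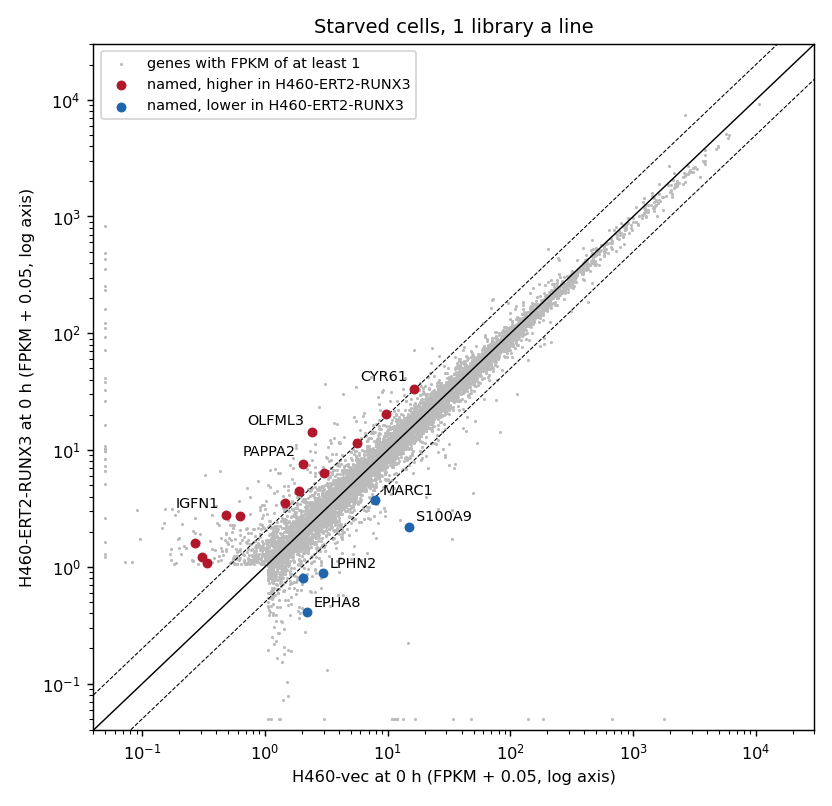
Level of each of the 11573 genes in the starved H460-vec library (horizontal) and the starved H460-ERT2-RUNX3 library (vertical), both as FPKM + 0.05 on log axes, with 1 library a line. Most points lie along the diagonal, and the coloured points are 13 named genes that were higher and 5 that were lower by at least 1 on the log2 scale.

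The spread of the difference depended on the level of a gene. Among 1052 genes whose higher FPKM was between 1 and 2, the central 95% of differences ran from -2.01 to 2.05, and 15.4% of the genes were past 1. Among 2042 genes from 2 to 5 it ran from -1.06 to 1.36. Among 4526 genes from 5 to 20 it ran from -0.61 to 0.79, and 2.94% were past 1. Above that the spread was about the same, with -0.53 to 0.56 for 3084 genes from 20 to 100 and -0.57 to 0.59 for 869 genes of 100 or more. The median was 0.02 from 5 to 20, -0.02 from 20 to 100 and -0.10 at 100 or more. A difference of 1 was thus within the usual range for a gene near FPKM 1 and well outside it for a gene above 5.

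**Figure D2:**
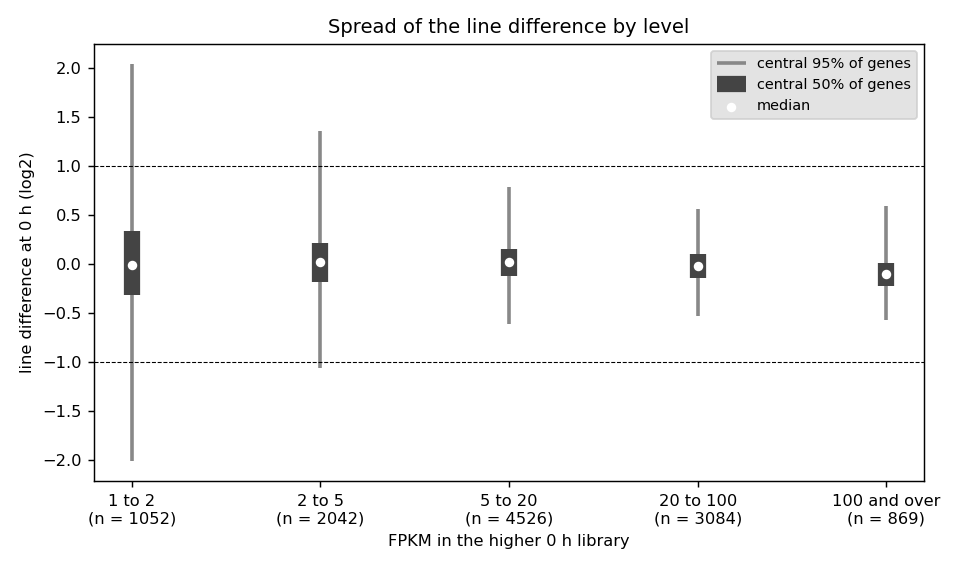
Line difference at 0 h (log2, vertical) for genes grouped by their FPKM in the higher library (horizontal), with the number of genes under each group. Thin lines span the central 95% of genes, thick lines the central 50% and white points the median; the central 95% narrows from -2.01 to 2.05 at FPKM 1 to 2 down to -0.53 to 0.56 at FPKM 20 to 100.

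Some of these genes were listed at 0 in 1 library, namely 32 of the 296 higher genes and 21 of the 230 lower ones, and for them the size of a difference depends on the constant of 0.05. Only 1 gene in each direction was at 0 in all 3 libraries of the one line and above 0 in all 3 of the other. Of the 32, 12 were above 0 in no library but H460-ERT2-RUNX3 at 0 h, and of the 21, 5 were above 0 in no library but H460-vec at 0 h. Of the 32 and 21 genes listed at 0 in 1 of the 0 h libraries, SNORD45A, a small nucleolar RNA, was the only one with a symbol. It stood at FPKM 436 in H460-ERT2-RUNX3 at 0 h and 371 in H460-vec at 8 h and was listed at 0 in the other 4 libraries. RNU11, the short RNA of the minor spliceosome, stood at 20.6 in the control and at 8.81 in the RUNX3 line at 0 h. Both belong to the short RNAs, which FPKM of an mRNA library measures poorly, and neither was counted among the named genes.

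The line difference was then taken again between the libraries at 8 h and between those at 16 h, which the comparison at 0 h did not use. Of the 296 genes higher by at least 1 at 0 h, 169 (57.1%) were also higher by at least 1 at 8 h, where 4.8% of the 11573 genes were. Of the 230 lower genes, 138 (60.0%) were lower by at least 1 at 8 h, where 4.99% of all were. At 16 h the numbers were 154 (52.0%) of the higher genes, beside 18.2% of all, and 153 (66.5%) of the lower genes, beside 23.9% of all. The share that was past 1 the same way at 8 h depended on the handling of low values: with a pseudocount of 1 it was 47.3% of higher genes, and with no level filter 36.9% of higher and 40.7% of lower genes. In each direction 14 genes, of the 296 higher and the 230 lower ones, differed by at least 1 the opposite way at 8 h. Beside this, 4.99% of all genes were lower and 4.8% higher by at least 1 at 8 h.

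Among genes above 0 in both 0 h libraries, 164 of 264 higher genes (62.1%) and 135 of 209 lower genes (64.6%) were past 1 the same way at 8 h. Their median difference was 1.57, 1.24 and 1.29 at 0, 8 and 16 h for the higher genes. For the lower genes it was -1.41, -1.38 and -2.33. The lower genes lay further apart at 16 h than at 0 h, while the higher genes did not. Both groups were chosen by their 0 h difference, so their 0 h medians are not free of that choice. At 16 h 18.2% of all genes were higher and 23.9% lower by at least 1. At the threshold of 2, 48 of 106 higher genes (45.3%) and 36 of 72 lower genes were past it the same way at 8 h, beside 1.24% and 0.907% of all genes. In 170 of the 296 higher genes all 3 libraries of the RUNX3 line lay above all 3 of the control line, which held for 12.3% of all genes. In 158 of the 230 lower genes all 3 lay below, which held for 14.2% of all. Being past 1 at 0 h is itself a part of not overlapping, so these shares are not independent of the choice. The libraries at 8 and 16 h also differ by serum, 4-OHT and the activated fusion, so they are not replicates of 0 h.

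**Figure D3:**
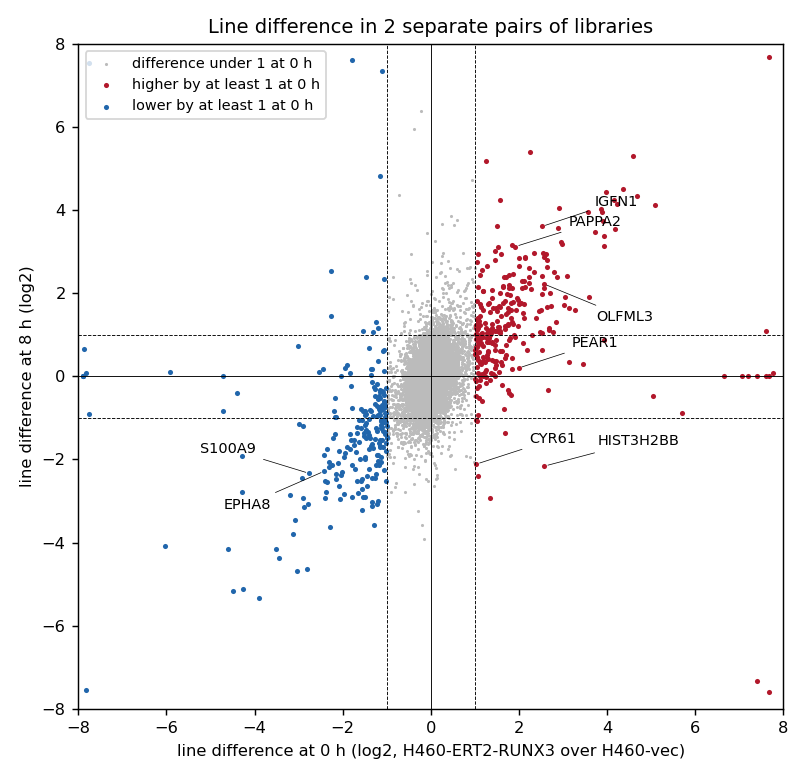
Line difference at 8 h (vertical) against the line difference at 0 h (horizontal), both log2 of H460-ERT2-RUNX3 over H460-vec, for the 11573 genes, with 30 genes outside the plotted range of 8 either way. The 2 axes use separate libraries; 169 of the 296 coloured points to the right of 1 lie above 1, and 138 of the 230 to the left of -1 lie below -1, while HIST3H2BB and CYR61 lie on opposite sides.

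Symbols were at hand for 1145 of the 24331 genes, all on chromosome 1 except MMP1, and for 569 of the 11573 members (4.92%). Of 1063 chromosome 1 genes found in the annotation, 1055 (99.2%) lie on the plus strand, so the named genes are a part of 1 chromosome. RUNX3 lies on the minus strand of chromosome 1 and has no named row in this table. Its level, and that of the fusion, was not analysed here in either 0 h library, and the labels of the lines could not be checked by it. In the separately made K94/171R table RUNX3 stood at FPKM 2.12, 0.712 and 2.11 at 0, 8 and 16 h. Markers of other cell types were at or near 0 in both starved lines. Of 9 leukocyte markers 8 were at 0 in both, both endothelial markers were at 0, and 3 of 4 fibroblast markers were at 0, with DDR2 at 0.0202 in the control and at 0.269 in the RUNX3 line. Of the 5 epithelial markers, SFN stood at 55.6 and 51.9 and RAB25 was at 0 in both, and their summed FPKM was 57.1 in the control and 53.7 in the RUNX3 line. ELF3 and CGN, markers of epithelial identity and tight junctions, stood below 1 in both lines.

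Among the genes with a symbol, 15 were higher and 6 lower by at least 1, with a median difference of 0.03 over the 569. Without the short RNAs and the gene listed at 0, 14 higher and 5 lower genes remained, and those reported are described by what their products do. At 8 h 7 of the 14 and 5 of the 5 were past 1 the same way, beside the 4.8% and 4.99% given for all genes, and at 16 h 6 of the 14 and 5 of the 5 were, beside 18.2% and 23.9% of all. Of the 19 genes, 14 lay outside the central 95% of genes of their level. The choice of genes past 1 fixes much of this count, since from FPKM 5 upward those bands end short of 1. PEAR1, CHI3L2, FGGY, HHLA3 and SERTAD4 lay inside it. Coordinates are hg19 loci as the study's gene list gives them, counted from 1.

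OLFML3 (XLOC_000606, chr1:114522030-114524875) encodes a secreted olfactomedin-domain glycoprotein of the extracellular matrix. At 0, 8 and 16 h, the order used for all values that follow, it stood at 2.36, 1.57 and 1.87 in H460-vec and at 14.2, 7.54 and 0.726 in H460-ERT2-RUNX3. The line difference of 2.56 at 0 h was 2.23 at 8 h and -1.31 at 16 h, so the RUNX3 line was the higher at the first times only. PAPPA2 (XLOC_000897, chr1:176432307-176811970), a secreted metalloproteinase that cleaves insulin-like growth factor binding proteins, stood at 1.98, 1.26 and 1.47 in H460-vec and at 7.61, 11.4 and 18.7 in H460-ERT2-RUNX3. Its difference was 1.92 at 0 h, 3.12 at 8 h and 3.62 at 16 h. Here the lines did not overlap, and the gap was wider in the later libraries.

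CYR61 (XLOC_000486, chr1:86046444-86049648; CCN1 in newer annotation) encodes a secreted matricellular protein and is a well-known target of YAP and of serum. It stood at 16.4, 17.5 and 16.8 in H460-vec and at 33.5, 4.01 and 5.00 in H460-ERT2-RUNX3. The difference was 1.03 at 0 h, just past the threshold, and -2.11 and -1.74 at 8 and 16 h. The control line was steady across its 3 libraries, and the RUNX3 line was above it when starved and below it afterwards. CHI3L2 (XLOC_000585, chr1:111770281-111786062), a secreted chitinase-like lectin, stood at 0.286, 0.199 and 0.0989 in H460-vec and at 1.04, 0.373 and 0.746 in the RUNX3 line. PEAR1 (XLOC_000784, chr1:156863523-156886226), a membrane protein with EGF-like repeats named for platelet aggregation, stood at 0.257, 0.230 and 0.0934 against 1.17, 0.272 and 0.0902. Their differences of 1.70 and 1.99 rest on levels near FPKM 1. That of CHI3L2 was 0.77 at 8 h and 2.42 at 16 h, and that of PEAR1 was 0.20 and -0.03.

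IGFN1 (XLOC_000962, chr1:201159953-201198080), an immunoglobulin and fibronectin domain protein of the sarcomere's Z-disc, stood at 0.436, 1.28 and 0.215 in H460-vec. In H460-ERT2-RUNX3 it stood at 2.74, 16.1 and 71.9, with differences of 2.52, 3.61 and 8.09. It was above the control in every library of the RUNX3 line, before as well as after the inducer. RYR2 (XLOC_001123, chr1:237205702-237997288), the calcium release channel of heart muscle, stood at 0.578, 0.547 and 0.584 in H460-vec and at 2.66, 1.95 and 2.56 in H460-ERT2-RUNX3. Its difference of 2.11, 1.75 and 2.04 was about the same at all 3 times.

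PAX7 (XLOC_000144, chr1:18957500-19075360), the transcription factor of muscle stem cells, stood at 5.62, 4.33 and 3.69 in H460-vec and at 11.5, 6.21 and 2.27 in H460-ERT2-RUNX3. The difference was 1.02 at 0 h, 0.51 at 8 h and -0.69 at 16 h. PALMD (XLOC_000529, chr1:100111431-100231349), palmdelphin, a cytosolic protein of the paralemmin family, stood at 2.96, 2.36 and 4.22 against 6.28, 3.99 and 2.02. Its difference was 1.07, 0.75 and -1.04. PAX7 and PALMD were thus higher in the RUNX3 line when starved and lower there at 16 h, and in both genes the libraries of the lines overlapped.

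FGGY (XLOC_000420, chr1:59762625-60228402), a carbohydrate kinase, stood at 1.41, 1.72 and 1.89 in H460-vec and at 3.45, 3.59 and 2.77 in H460-ERT2-RUNX3, with differences of 1.27, 1.04 and 0.54. LINC00467 (XLOC_001033, chr1:211556097-211605877), a long noncoding RNA, stood at 9.62, 8.13 and 7.30 against 20.2, 20.4 and 13.4, with differences of 1.06, 1.32 and 0.87. In both genes every library of the RUNX3 line lay above every library of the control line. HHLA3 (XLOC_000454, chr1:70820493-70833705), annotated as a long noncoding RNA, stood at 1.83 and 4.45 at 0 h but at 3.33 and 3.31 at 8 h and 3.99 and 3.76 at 16 h, with differences of 1.26, -0.01 and -0.08. HIST3H2BB (XLOC_001092, chr1:228645808-228646259; H2BC26 in newer annotation), a gene of histone H2B, stood at 0.218, 1.12 and 0.226 in H460-vec and at 1.55, 0.211 and 2.10 in H460-ERT2-RUNX3. Its difference was 2.58 at 0 h, -2.16 at 8 h and 2.96 at 16 h, so it kept no direction. Its reads can be shared with other H2B copies, and histone mRNAs mostly lack the poly(A) tail that the library kit selects.

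The 5 lower genes, chosen for being lower by at least 1 at 0 h, were lower by as much at 8 and 16 h, where 4.99% and 23.9% of all genes were. S100A9 (XLOC_000727, chr1:153330330-153333503), a calcium-binding protein of the calprotectin complex found in neutrophils and stressed epithelia, stood at 14.9, 13.6 and 22.7 in H460-vec and at 2.15, 2.65 and 0.137 in H460-ERT2-RUNX3. Its difference was -2.76, -2.33 and -6.93. EPHA8 (XLOC_000166, chr1:22890004-22930087), a receptor tyrosine kinase for ephrin-A ligands, stood at 2.14, 3.35 and 4.11 against 0.361, 0.650 and 0.355. Its difference was -2.42, -2.28 and -3.36. Both genes were already far lower in the starved RUNX3 line, and the lines did not overlap.

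LPHN2 (XLOC_000478, chr1:82266082-82458107; ADGRL2 in newer annotation), an adhesion G protein-coupled receptor, stood at 2.90, 3.08 and 3.57 in H460-vec and at 0.835, 0.946 and 1.17 in H460-ERT2-RUNX3. The difference of -1.74, -1.65 and -1.57 was nearly constant, as it was for RYR2 in the other direction. SERTAD4 (XLOC_001029, chr1:210404804-210416440), a SERTA domain protein, stood at 1.97, 0.674 and 0.853 in H460-vec. In H460-ERT2-RUNX3 it stood at 0.748 and 0.0331 at 0 and 8 h and was listed at 0 at 16 h, with differences of -1.34 at 0 h and -3.12 at 8 h, and its 0 h value lay within the range of the control line. MARC1 (XLOC_001061, chr1:220960039-220987741; MTARC1 in newer annotation), a molybdenum enzyme of the outer mitochondrial membrane, stood at 7.82, 6.92 and 6.47 against 3.69, 1.41 and 0.289. Its difference was -1.07, -2.26 and -4.27, the smallest of the 5 at 0 h, and with both libraries scaled to the same sum it was -0.97.

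The named genes nearest to the threshold on its inner side were PAX7 at 1.02 and CYR61 at 1.03 among the higher, followed by LINC00467 at 1.06 and PALMD at 1.07. Among the lower genes they were MARC1 at -1.07 and, further in, SERTAD4 at -1.34. Just outside it lay HS2ST1, a heparan sulfate sulfotransferase, at 0.94, the stress transcription factor ATF3 at 0.94 and the growth factor artemin (ARTN) at 0.91. On the other side were SLC2A1-AS1 at -0.97 and the phosphatases DUSP23 and PTPRU at -0.96. The levels of HS2ST1 were 8.38 in the control and 16.1 in the RUNX3 line, values like those of genes within it. Most genes past the threshold have no symbol in the sources used here. The largest higher differences among identifiers above 0 in both libraries were XLOC_017104 with 0.0409 and 3.04 and XLOC_023005 with 0.103 and 3.10. The largest lower ones were XLOC_007007 with 14.5 and 0.173 and XLOC_016970 with 3.15 and 0.0809. Their differences were 5.09, 4.36, -6.03 and -4.61 at 0 h and 4.12, 4.51, -4.08 and -4.16 at 8 h. XLOC_023005 and XLOC_016970 lay about as far apart at 8 h as at 0 h, while XLOC_007007 and XLOC_017104 lay closer together, in the same direction.

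In the K94/171R line, whose table was made separately and uses other identifiers, 18 of the 19 genes were found. The starved levels of those reported are given as values only. OLFML3 stood at 17.6, IGFN1 at 3.72, PAPPA2 at 2.89, CYR61 at 30.3 and PAX7 at 16.3. EPHA8 stood at 0.262, SERTAD4 at 0.190 and MARC1 at 3.40, while S100A9 was listed at 0. PEAR1 stood at 0.141 and LPHN2 at 4.43. RYR2 stood at 1.65, FGGY at 4.50, HHLA3 at 5.02, PALMD at 6.88 and HIST3H2BB at 0.634, and CHI3L2 was listed at 0. No difference was computed across the tables, since nothing sets their scales equal.

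The promoters of 4 of the named genes are shown because the RUNX family has a short, well-known binding motif. They are not the genes with the largest differences at 0 h. HIST3H2BB, EPHA8, RYR2 and PEAR1 differed more than PAPPA2 and held no match. The genes shown include the 1 higher and the 1 lower named gene that held a match, so they overstate its frequency. The sequences are the 250 bases before the annotated start in RefSeq, on GRCh38.p14, written 5′ to 3′, and capitals mark matches to TGTGGT or TGCGGT on either strand, which reads ACCACA or ACCGCA on the other.
OLFML3 (chr1:113979224-113979473, + strand): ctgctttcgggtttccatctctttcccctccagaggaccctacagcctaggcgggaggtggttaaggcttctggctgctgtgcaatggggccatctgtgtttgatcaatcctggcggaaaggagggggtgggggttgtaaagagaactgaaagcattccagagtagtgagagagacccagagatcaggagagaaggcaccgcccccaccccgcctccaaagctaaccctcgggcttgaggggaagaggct
PAPPA2 (chr1:176462925-176463174, + strand): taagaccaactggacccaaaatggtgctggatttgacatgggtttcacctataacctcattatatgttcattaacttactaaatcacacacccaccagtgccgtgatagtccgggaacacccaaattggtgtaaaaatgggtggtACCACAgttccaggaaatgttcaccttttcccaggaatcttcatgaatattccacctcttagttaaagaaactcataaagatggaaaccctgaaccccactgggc
IGFN1 (chr1:201190574-201190823, + strand): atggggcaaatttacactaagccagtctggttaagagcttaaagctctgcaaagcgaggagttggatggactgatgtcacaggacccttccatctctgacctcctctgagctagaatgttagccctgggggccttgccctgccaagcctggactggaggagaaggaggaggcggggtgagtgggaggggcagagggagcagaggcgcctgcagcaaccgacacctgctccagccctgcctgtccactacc
S100A9 (chr1:153357604-153357853, + strand): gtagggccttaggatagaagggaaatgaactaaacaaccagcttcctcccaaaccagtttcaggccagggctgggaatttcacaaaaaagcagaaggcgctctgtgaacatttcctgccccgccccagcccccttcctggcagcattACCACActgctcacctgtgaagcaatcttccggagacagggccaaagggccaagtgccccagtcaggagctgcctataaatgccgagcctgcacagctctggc
PAPPA2, higher in the RUNX3 line, and S100A9, lower in it, each held 1 match, and OLFML3 and IGFN1 held none in this window. Of the named genes with a promoter in the table, 1 of 11 higher and 1 of 5 lower genes held a match. Over all 27305 promoters 4400 (16.1%) did, and over those of genes with a symbol and FPKM of at least 1, 75 of 489 (15.3%). A match of 6 letters is a description and not a binding site.

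Lists of genes by function were then read for smaller differences that members might share. Over all 11573 genes 5737 lay above and 5835 below 0, with 4.55% past 1 in either direction. The lists are drawn from the genes with a symbol. Of the 569 such genes among the members, 317 lay above and 252 below 0, with a median of 0.03. The lists with the highest medians were those of secreted factors and receptors at 0.46, serum and YAP response at 0.45, and matrix and adhesion at 0.40, while the median of all genes was -0.0028. At 8 h these 3 medians were 0.13, 0.16 and -0.37. These lists share some genes with each other and with the genes named above, and each holds 8 to 10 measured members.

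Of the 8 secreted factors and receptors with FPKM of at least 1, 7 were higher in the RUNX3 line by some amount and none was past 1. CSF1, the growth factor of macrophages, stood at 6.88 in the control and at 12.4 in the RUNX3 line, a difference of 0.84, and it lay outside the central 95% of genes of its level. ARTN, a ligand of the GDNF family, stood at 1.76 and 3.36. The ephrin EFNA1 stood at 36.6 and 51.9, a difference of 0.50, and the cytokine receptor IL6R at 6.96 and 8.79. EFNA4, another ephrin, was the exception with 10.8 and 7.39, a difference of -0.55. Its locus in the table also covers ADAM15, so their reads may not be fully separated. At 8 h the differences of CSF1 and ARTN were 0.21 and 0.09.

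Of the 10 matrix and adhesion genes, 8 were higher by some amount and 2 past 1, namely OLFML3 and CYR61. The phosphatase receptor PTPRF stood at 10.1 and 15.9, a difference of 0.65. ECM1, a secreted glycoprotein of the matrix, stood at 17.0 and 23.9, and the basement membrane chain LAMC1 at 162 and 189. The collagen-modifying enzyme PLOD1 stood at 46.0 and 44.7. At 8 h PTPRF stood at 12.3 and 12.2, and the differences of ECM1 and LAMC1 were 0.09 and -0.32, so these members were close or lower at that time. MMP1, a collagenase, was low in both starved lines, at 0.193 and 0.127.

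In the serum and YAP response list, 7 of 8 were higher by some amount and CYR61 alone was past 1. The ligand TGFB2 stood at 11.9 and 16.0, TUFT1 at 10.1 and 13.9 and the immediate early gene IER5 at 13.6 and 18.7. RGS2, an inhibitor of G protein signalling, was the exception with 320 and 266. Stress and arrest genes were spread on both sides, with 6 of 11 higher, a median of 0.10 and none past 1. GADD45A, a growth arrest protein induced by DNA damage, stood at 9.66 and 15.9, and ATF3 at 1.52 and 2.95, differences of 0.72 and 0.94. BTG2, an antiproliferative target of p53, stood at 4.19 and 5.07, SESN2, a sestrin that restrains mTORC1, at 2.75 and 2.61, and the CDK inhibitor gene CDKN2C at 19.3 and 18.4. At 8 h the differences of GADD45A, ATF3 and SESN2 were 2.96, 4.73 and 2.43, while at 0 h all 3 lay inside the central 95% of genes of their level.

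**Figure D4:**
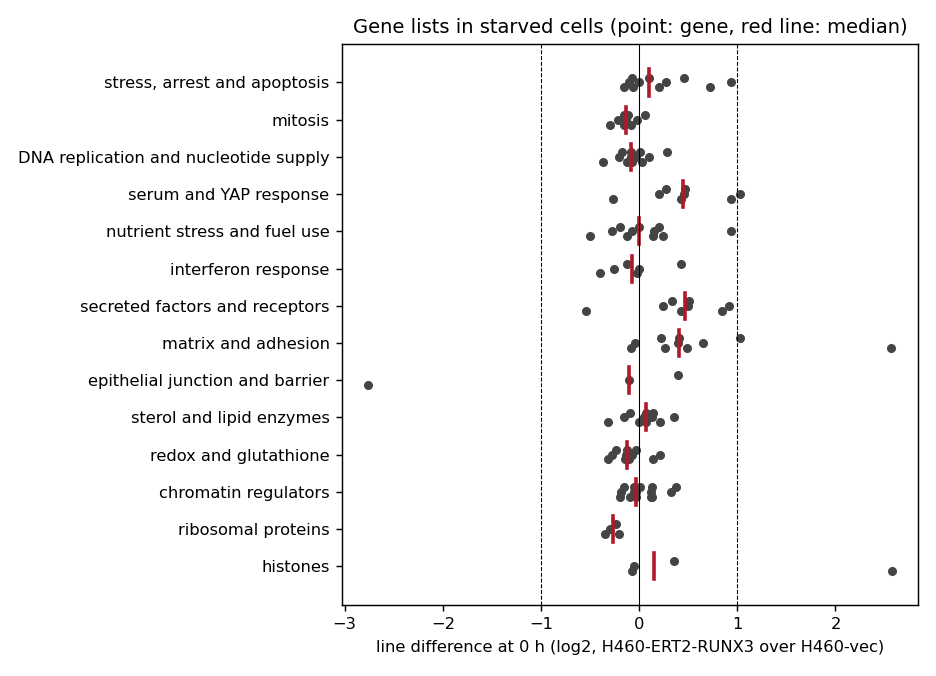
Line difference at 0 h (log2, H460-ERT2-RUNX3 over H460-vec, horizontal) of each gene with FPKM of at least 1 in 14 lists by function, where a point is a gene and a red line the median of its list. Medians run from -0.26 for ribosomal proteins to 0.46 for secreted factors and receptors, and few points lie beyond 1 either way.

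Cell cycle genes were alike or slightly lower in the RUNX3 line. Of 9 mitosis genes 8 were lower by some amount, with a median of -0.14 and none past 1. CDC20, the activator of the anaphase-promoting complex, stood at 74.9 and 78.0, the kinetochore protein CENPF at 69.9 and 62.9 and NUF2 at 58.9 and 48.0. Of 12 genes of DNA replication and nucleotide supply 8 were lower, with a median of -0.08. The exonuclease EXO1 stood at 138 and 126, and DTL, a substrate receptor of the replication-coupled ubiquitin ligase, at 28.2 and 28.4. With both libraries scaled to the same sum, the mitosis median stayed below 0 at -0.03 and the replication median was 0.02, so a direction for replication genes depends on the scaling.

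Ribosomal proteins had the lowest median, -0.26, with all 4 genes lower in the RUNX3 line. RPS27 stood at 5940 and 4655, RPL11 at 2037 and 1664 and RPL5 at 1305 and 1132. At 8 h their median was 0.17, and with the same FPKM sum it was -0.16 at 0 h. Genes of redox and glutathione metabolism were lower in 9 of 11 cases with a median of -0.12. Scaling both libraries to the same sum raises every difference by 0.10, nearly the size of that median. Some members, such as PGD at 533 and 508, also stand at FPKM 100 or more. GSTM4 stood at 48.6 and 41.2, though members of the GSTM family are close copies that can share reads. Sterol and lipid enzymes had a median of 0.07, with 8 of 11 higher by some amount. FDPS of the mevalonate pathway was 1 of the 3 lower genes, at 180 and 162. Nutrient stress and fuel use genes had a median of 0.0017, with TXNIP, which responds to glucose, at 22.5 and 18.6.

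Interferon response genes had a median of -0.07, with 5 of 6 lower. The DNA sensor IFI16 was the exception at 43.8 and 58.7, a difference of 0.42, while IFI44 stood at 23.4 and 17.7. Chromatin regulators had a median of -0.03, none of 15 was past 1, and their differences ran from -0.19 to 0.38. ARID1A of the SWI/SNF complex stood at 10.1 and 11.1, and RNF2 of Polycomb complex PRC1 at 5.43 and 6.82. The medians of the interferon, epithelial and chromatin lists lay above 0 with both libraries scaled to the same sum. Of 16 epithelial junction and barrier genes only 3 reached FPKM 1, and S100A9 was the 1 past the threshold. GRHL3, a transcription factor of epidermal barrier formation, stood below the level filter at 0.695 and 0.143. Of 4 measured histone genes HIST3H2BB alone was past 1, and H3F3A, the gene of replication-independent histone H3.3, stood at 614 and 584.

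HPDL, an enzyme named for its likeness to 4-hydroxyphenylpyruvate dioxygenase, stood at 17.8 and 17.0 at 0 h, a difference of -0.07 that was -4.25 at 16 h. IL24, a cytokine of the IL-10 family, was listed at 0 in H460-vec and stood at 0.0758 in H460-ERT2-RUNX3 at 0 h, too low for the level filter, and at 16 h it was listed at 0 and stood at 102. Genes with a symbol were also placed along chromosome 1 in windows of 10 Mb, of which 23 held at least 5 genes and together 565. The window medians ran from -0.13 to 0.15 at 0 h and from -0.43 to 0.35 at 8 h. No window median reached the threshold used for single genes. That threshold was not set for windows, and smaller differences shared by neighbouring genes were not tested.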

How the data were processed

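RNA was measured with the TruSeq Stranded mRNA kit on a NextSeq500 in 9 libraries, 1 per condition. The authors ran Cutadapt for trimming and STAR for mapping to hg19 (version 2.5.0 in the submitters' processing notes) and made the deposited FPKM values per gene with Cufflinks and Cuffdiff (version 2.2.1). The annotation, and whether counting used the strand, is not given in the sources used here. The first of 2 tables holds 24331 genes for the control and wild-type RUNX3 lines (6 libraries), by identifiers without symbols. Symbols came from the study's supplementary gene list by the same identifier.

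Here log2 differences were computed with a pseudocount of 0.05 for genes that reached FPKM 1 in either library, in Python 3.11.15 with pandas 2.3.3 and numpy 2.4.6. With 1 library a side there was no test, and no p-value was computed. FPKM does not give depth. The relative depth came from low values (under 0.3 in both libraries) within 0.01 of their most frequent ratio. It holds only if each library was scaled by its own reads alone.

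Named genes were those with a symbol, above 0 in both libraries and at least 1 apart on the log2 scale, short RNAs apart, together with listed genes, genes next to the threshold, and at most 2 identifiers per direction. The values of 1 named and 1 listed gene are not reported here. The members and lists were chosen with earlier results of these data known. Alternatives were 2 other pseudocounts, other level filters, the same FPKM sum, centring on the median, and genes above 0 in both libraries only. The calculation was tested on simulated data.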

Additional observations from a re-analysis of the deposited data

Results flagged for a closer look

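A pair of named genes lay past 1 in opposite directions between the starved libraries and those at 8 h, and these differences were not tested. HIST3H2BB was higher in H460-ERT2-RUNX3 by 2.58 on the log2 scale at 0 h and lower at 8 h, at -2.16. CYR61 was higher by 1.03 at 0 h and lower at 8 h, at -2.11. Of all genes, 4.99% were lower by at least 1 at 8 h. The values of HIST3H2BB lie between FPKM 0.211 and 2.10 in the 6 libraries, where 15.4% of genes were past 1 at 0 h. Those of CYR61 lie between 4.01 and 33.5.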

How the results depend on the processing

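No paired analysis was possible because each line had 1 library per time. Leaving out a replicate was not possible for the same reason. The counts of genes past 1 and past 2 stayed within 1.5 times with a pseudocount of 0.01, centring on the median, the same FPKM sum, and genes above 0 in both libraries only. With a pseudocount of 1, 169 genes were higher and 115 lower by at least 1, and 40 and 27 by at least 2. Of these higher genes 47.3% were past 1 at 8 h, and the matrix median was 0.24. With no filter on low values 934 and 874 genes were past 1 and 233 and 202 past 2. Then 36.9% of higher and 40.7% of lower genes were past 1 at 8 h, and the secreted and matrix medians were 0.25 and 0.24. With FPKM of at least 5, 130 and 90 genes were past 1 and 52 and 33 past 2, the epithelial median was -1.43 and the histone median -0.072, each from fewer genes. With the same FPKM sum 50.9% of higher genes were past 1 at 8 h. Of the 19 named genes 9 stayed past 1 with a pseudocount of 1 and 18 with the same FPKM sum (MARC1 did not), while all 19 did with a pseudocount of 0.01, centring, no filter or genes above 0 in both. All 9 that reach FPKM 5 did so too.

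With 1 library a line, an unknown number of reads and symbols for part of chromosome 1, a difference of 1 near FPKM 1 cannot be told apart from sampling, and line, clone and library cannot be told apart from each other.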
